A study of Mus musculus with 4 samples.

Results

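Krt5 and Krt14 encode keratin 5 and keratin 14, the keratin pair of basal keratinocytes. Both were taken by symbol from the gene lists of the RNA matrices and are 2 of the 32285 genes listed there. The study read RNA and heritable DNA tags from the same single cells. MK is a mouse keratinocyte cell line. Every sample is labelled as treated with Dox, which usually means doxycycline, an inducer of transgenes. Tagged cells were sorted as GFP-positive and then captured in droplets. The 4 samples are 1 RNA library and 1 tag library for each of MK and Diff_MK. All carry the same cell line, treatment and growth medium in their labels, and the meaning of Diff is not given there. Each group is 1 library, so no test between groups was possible. Every interval given here is a 95% exact interval that covers counting error only.

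Keratins build intermediate filaments from heterodimers of 1 type I and 1 type II chain. In basal keratinocytes the type I chain is keratin 14 and the type II chain is keratin 5, and each chain is unstable without a partner. Cells that leave the basal layer stop making both messages and switch to other keratins, while the proteins persist. Krt14 and Krt5 are therefore widely used as markers of the layer that holds the dividing cells of the epidermis.

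On GRCm38, the assembly also called mm10, Krt14 (ENSMUSG00000045545) lies on the minus strand of chromosome 11 from 100203162 to 100207548 with 8 exons in the GENCODE vM21 annotation. Krt5 (ENSMUSG00000061527) lies on the minus strand of chromosome 15 from 101707070 to 101712898 with 9 exons. These are the clusters of type I and type II keratin genes. Of the 50-base words of the Krt14 transcript, 237 of 1649 also occur in Krt16 or Krt17, and 43 of 451 in its last 500 bases do. Of the Krt5 words, 183 of 2148 occur in Krt6a, Krt6b or a predicted gene, and 0 of 451 in the last 500 bases do. Gm44323 overlaps Krt5 on the other strand. The libraries read 3′ ends, so each UMI (a molecular identifier that marks 1 captured transcript) stands for a molecule and no length scaling was applied between genes.

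The Krt5 promoter is shown because the pair is a textbook case of basal-cell transcription and its regulators were measured in the same cells. The 250 bases before the RefSeq start of Krt5 (GRCm38.p6, chr15:101712906-101713155, minus strand) are printed 5′ to 3′, with matches to CACCC, the core letters bound by KLF family factors, in capitals on either strand.
Krt5: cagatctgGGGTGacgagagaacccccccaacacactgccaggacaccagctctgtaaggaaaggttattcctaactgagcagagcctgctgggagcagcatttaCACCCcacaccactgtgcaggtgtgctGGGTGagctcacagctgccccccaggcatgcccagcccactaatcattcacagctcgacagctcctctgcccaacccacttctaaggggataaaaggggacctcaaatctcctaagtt
The 3 CACCC matches begin 242, 145 and 118 bases before the start, and 52.0% of 32851 promoter windows hold at least 1. The loose form of the p63 site, a spaced pair of CNNG, matched once, 97 bases before the start, overlapping no CACCC, and 63.5% of windows hold it. No match on either strand was found for the AP-2 letters GCCNNNGGC, held by 13.7% of windows, or for the GC box letters GGGCGG, held by 32.7%. The TATA box letters TATAAA (12.4% of windows), the AP-1 letters TGANTCA (6.75%) and the CCAAT box (33.8%) had none either, nor did the strict form of the p63 site, a spaced pair of CATG (0.490%). The printed bases do hold ataaaa close to their 3′ end, and such looser TATA-like letters were not counted.

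Of 7780 MK and 7569 Diff_MK cell barcodes, 7175 and 6912 had at least 1000 genes and at most 15% mitochondrial UMIs and were kept. Their median depth was 15599 and 14223.5 UMIs, and 9 kept barcodes occurred in both libraries. Beside the pair, the other 7 keratinocyte markers checked were present, from 88.9 CPM (UMIs per 1000000 UMIs) of Trp63 to 1476 CPM of Sfn in MK, and from 86.4 to 1604 CPM for the same genes in Diff_MK. The summed level of 7 fibroblast markers was 0.573 and 0.356 CPM, of 8 melanocyte markers 2.52 and 2.38 CPM, of 8 immune markers 6.44 and 5.27 CPM, of 5 endothelial markers 1.58 and 2.16 CPM, of 5 erythroid markers 2.27 and 1.65 CPM, and of 5 Merkel cell markers 20.4 and 11.97 CPM. No cell type lacking keratins was present in which free RNA could be measured.

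Both genes were higher in the Diff_MK library. Krt14 had 6295 CPM in MK, where it ranked 10 among all genes, and 12789.7 CPM in Diff_MK, where it ranked 2. The ratio was 2.03 (interval 2.03 to 2.04). Krt5 had 1152 CPM in MK, at rank 140, and 3140.1 CPM in Diff_MK, at rank 63, a ratio of 2.73 (2.71 to 2.74). Both genes passed a ratio of 2, which 1.82% of the 7736 genes at 10 CPM or more did (141 genes, against 60 at 0.5 or less). With scaling to the median ratio of genes these counts were 187 (2.42%) and 30, and the ratios were 2.26 for Krt14 and 3.03 for Krt5. Genes with at least 5 CPM in each library (8765) had a median log2 ratio of -0.15, so both genes stood further above that shift than above the total. The Krt14 ratio fell short of 2, at 1.75, when the cell cycle classes described further on were weighted alike in both libraries. The Krt5 ratio was then 2.42.

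The typical cell held many molecules of each. A median MK cell had 81 UMIs of Krt14 (5th to 95th percentile 10 to 253) and 15 of Krt5 (1 to 47). A median Diff_MK cell had 148 of Krt14 (23 to 514) and 40 of Krt5 (5 to 113), from a lower total. Counts of 0 were rare: 7 MK and 2 Diff_MK cells lacked Krt14, and 164 and 49 lacked Krt5. The 7 MK cells without Krt14 had 5038 to 13353 UMIs in total, and 3 of them also lacked Krt5.

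The Diff_MK cells did not move as a block. For Krt14, 35.4% of Diff_MK cells lay above the 95th percentile of MK cells and 75.3% above the MK median. For Krt5 these shares were 49.7% and 81.9%. The per-cell distributions overlapped, and both tails differed by more than the middle. The ratio of medians was 1.88 for Krt14 and 2.64 for Krt5, that of 95th percentiles 2.54 and 3.36, and that of 5th percentiles 2.34 and 3.11. After thinning every cell to 7500 UMIs and taking off counting variance, the coefficient of variation over cells was 75.5% in MK and 87.5% in Diff_MK for Krt14, and 66.4% and 77.9% for Krt5. Without thinning, the tenth of cells with the highest Krt14 counts held 29.3% of its UMIs in MK and 29.6% in Diff_MK. That with the highest Krt5 counts held 28.7% and 25.4% of its UMIs. Differences in depth between cells enter these 4 shares.

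**Figure D1:**
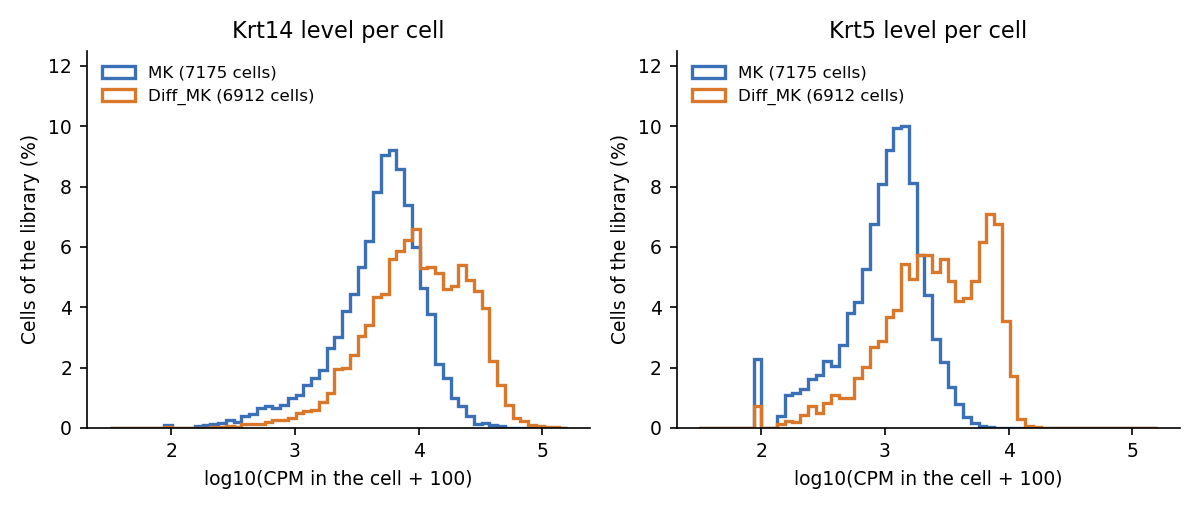
Level of Krt14 (left) and Krt5 (right) in each kept cell, as log10 of CPM in the cell plus 100, with the percent of cells of each library on the vertical axis. The 7175 MK cells form 1 main peak, while the 6912 Diff_MK cells spread over a peak near the MK range and another at higher levels; cells without a UMI sit at 2.

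In both libraries Krt14 messages outnumbered Krt5 messages. Krt5 made up 15.5% of the pair's UMIs in MK (interval 15.4 to 15.5%) and 19.7% in Diff_MK (19.7 to 19.8%), or 5.46 and 4.07 Krt14 UMIs per Krt5 UMI. In 10 of 6599 MK cells and 51 of 6749 Diff_MK cells with at least 20 pair UMIs, Krt5 exceeded Krt14. The balance varied between cells beyond counting: the standard deviation of the Krt5 share was 7.12 percentage points in MK against 4.07 from binomial counting, and 9.27 against 3.52 in Diff_MK. The 5th to 95th percentiles of the share were 5.88 to 29.3% in MK and 7.83 to 38.2% in Diff_MK.

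Type I messages also exceeded type II messages in the totals over all keratins, which include the pair. Krt14 was most of the type I total, so these totals do not show an excess outside the pair. Summed over the 53 keratin genes listed, type I genes had 7065 CPM and type II genes 3067 CPM in MK, a ratio of 2.30, and 15828 and 6468 CPM in Diff_MK, a ratio of 2.45. The pair gave 73.5% of all keratin UMIs in MK and 71.4% in Diff_MK. Krt14 was 89.1% of type I UMIs in MK and 80.8% in Diff_MK, and Krt5 was 37.6% and 48.5% of type II UMIs. The other main type II message was Krt6a, a keratin of wounded and hyperproliferative epidermis, at 1783 CPM in MK and 3129 CPM in Diff_MK. Krt6a exceeded Krt5 in MK, and in Diff_MK their 325031 and 326206 UMIs were nearly equal. The highest type I message beside Krt14 was below Krt6a, namely Krt17 at 297 CPM in MK and Krt19 at 1272 CPM in Diff_MK.

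Most other keratins at 10 CPM or more also had ratios above 1. Of these 12 genes, 7 had a ratio of at least 2 and 0 a ratio of 0.5 or less, against 1.82% and 0.776% of all genes at that level. Krt15, Krt32 and Krt78 are among the 7 but reached 10 CPM in Diff_MK only (1.02, 0.868 and 2.66 CPM in MK). For them a ratio above 1 follows from the filter. Krt15, a type I keratin found in follicle stem cells, went from 1.02 to 708 CPM and Krt19, a type I keratin of simple and follicle epithelium, from 251 to 1272 CPM. Krt16, a type I stress keratin, had a ratio of 2.88, Krt6b 4.51, Krt7 3.26, Krt78 8.15 and Krt32 40.9. Krt6a (1.75), Krt17 (1.53), Krt80 (1.59) and Krt10 (1.08) lay between 1 and 2, and Krt8, a type II keratin of simple epithelium, lay at 0.777.

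Across cells, Krt5 and Krt14 counts went together. Over 6838 MK cells thinned to 7500 UMIs Spearman's rho was 0.69, and over 6277 Diff_MK cells it was 0.80. With counting variance taken off, the linear correlation was 0.78 in MK and 0.75 in Diff_MK, so the order of the libraries depended on the measure. Cells of 1 library share its preparation, and these values are descriptions. The summed type I and type II counts tracked each other more closely than the pair did, with rho of 0.83 in MK and 0.92 in Diff_MK, and 0.91 and 0.94 with counting variance taken off. The spread beyond counting of the type II share of all keratin UMIs was 6.41 percentage points in MK and 6.40 in Diff_MK. For the Krt5 share of the pair it was 5.85 in MK and 8.58 in Diff_MK, so in Diff_MK the whole keratin balance varied less over cells than the pair's did.

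**Figure D2:**
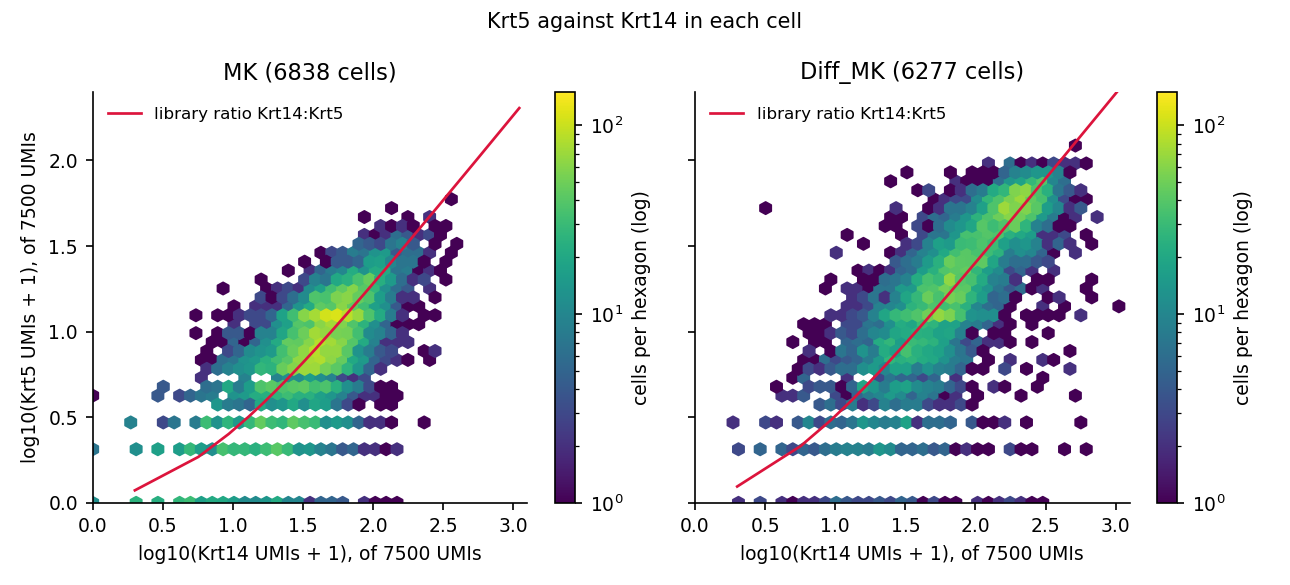
Krt5 against Krt14 in each cell thinned to 7500 UMIs, as log10 of UMIs plus 1, with MK on the left and Diff_MK on the right; colour gives the number of cells per hexagon on a log scale and the red line the library's Krt14 to Krt5 ratio (5.46 and 4.07). Cells scatter along the line in both libraries (rho 0.69 and 0.80), and the Diff_MK cells reach higher on both axes.

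The genes whose counts were most like the pair's over cells, among 1510 genes in MK and 1337 in Diff_MK with a mean of at least 0.75 thinned UMIs, were listed without predicted, mitochondrial and ribosomal protein genes. In MK, the gene most like Krt14 was Krt6a (rho 0.78), ahead of Krt5 (0.69), followed by Anxa1 (0.51), Dmkn (0.48), Krtdap (0.48) and Sfn (0.47). The gene most like Krt5 in MK was Krt14, followed by Krt6a (0.56), Anxa1 (0.40), Fabp5 (0.38) and Krtdap (0.36). Krtdap and Dmkn are known from suprabasal cells, and Sfn encodes the epithelial 14-3-3 sigma protein. In Diff_MK, each gene's closest match by rho was its partner. Krt14 was then followed by Krt6a (0.75), Lgals7 (0.64), which encodes galectin-7 of stratified epithelia, and Sfn (0.58). Krt5 was followed by Lgals7 (0.71), Fau (0.64), Krt15 (0.63), Krt19 (0.61) and Fam162a (0.60), with Krt6a at 0.57. Fau, which encodes a ribosomal protein, and Eef1a1 (0.58), a translation factor gene, stood there beside the keratins, as did Fdps (0.54), an enzyme of sterol synthesis, and Clu (0.53), the clusterin gene. With counting variance taken off, the correlation of Krt5 in Diff_MK was 0.752 with Fam162a and 0.749 with Krt14. That of Krt14 was 0.749 with Krt5 and 0.733 with Krt6a. By that measure the partner was thus not the closest match of Krt5.

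The genes at the opposite end differed between the libraries. In MK the lowest rho with Krt14 were those of Pfn1 (-0.34), an actin-binding protein gene, Rab5if (-0.30), Ppfibp1 (-0.29) and Itgb1 (-0.29), the beta-1 integrin of basal cells. The lowest with Krt5 was that of the MHC class I gene H2-D1 (-0.37), and Rab5if (-0.32) and Ppfibp1 (-0.31) were again among the lowest. In Diff_MK the lowest with Krt14 were those of Ptma (-0.63), a chromatin-associated gene of growing cells, and H2afz (-0.62), a histone variant gene. The lowest with Krt5 were those of Odc1 (-0.65), the first enzyme of polyamine synthesis, H2afz (-0.63) and the chemokine gene Cxcl5 (-0.62).

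Cell cycle genes were tied to the pair in Diff_MK. All 14 genes of the G2/M list with enough counts there had rho of -0.1 or lower with Krt14 (median -0.40) and with Krt5 (median -0.41). Such values were common in that library, at 50.9% of all genes tested with Krt14 (median -0.10) and 53.9% with Krt5 (median -0.11). Ube2c, a ubiquitin enzyme of mitosis, had -0.49 with Krt14 and -0.47 with Krt5, and Top2a, the topoisomerase of dividing cells, had -0.47 with both. The 3 genes of the S-phase list with enough counts also had -0.1 or lower with both, among them Pcna, the sliding clamp of DNA polymerase, at -0.38 with Krt14 and -0.37 with Krt5.

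Few genes of the same lists reached such values in MK. Of 21 G2/M genes tested, 4 had rho of -0.1 or lower with Krt14 and 2 with Krt5, against 12% and 12.7% of all genes, with medians of -0.05 and -0.02. Of 7 S-phase genes, 0 had -0.1 or lower with either gene. Rrm2, a ribonucleotide reductase subunit, had 0.13 with Krt14 and 0.17 with Krt5, so its sign was opposite to that in Diff_MK (-0.35 with both).

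Cells were also divided by the summed S and G2/M lists, with limits common to both libraries, into S, G2/M and low-cycle cells. MK had 1109 low-cycle, 3046 S and 3020 G2/M cells, and Diff_MK 3336, 1507 and 2069. These classes are ranges of a score: 664 MK and 402 Diff_MK cells lay within 0.1 standard deviations of a limit. Phase was not measured otherwise.

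By summed UMIs, both keratins were highest in the low-cycle cells of each library, but in MK this did not hold for the typical cell. In Diff_MK, Krt14 had 20872 CPM in low-cycle cells, 8376 CPM in S cells and 6795 CPM in G2/M cells, and Krt5 had 5051, 2043 and 1755 CPM. Low-cycle cells thus had 3.07 times the Krt14 level and 2.88 times the Krt5 level of G2/M cells. In MK the same comparison gave 1.505 for Krt14 (8275 and 5499 CPM) and 1.32 for Krt5 (1355 and 1028 CPM), with S cells at 6489 and 1223 CPM. A ratio of 0.8 or less to low-cycle cells was reached by both genes in Diff_MK S cells (11.3% of genes) and G2/M cells (10%), by both in MK G2/M cells (18.3%) and by Krt14 but not Krt5 (0.902) in MK S cells (22.5%).

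In Diff_MK, low-cycle cells also held more molecules of both keratins. They had fewer UMIs in all, a median of 11501.5 against 18998 in G2/M cells, yet more Krt14 UMIs, with a median of 223 against 107. For Krt5 the medians were 61 and 27 UMIs. In MK the medians were 74 and 84 UMIs for Krt14 and 12 and 16 for Krt5, at 14669 and 17659.5 UMIs in all, so there the typical low-cycle cell held fewer of both messages than a G2/M cell. The median Krt14 level per MK cell was 5155 CPM in low-cycle, 5609 CPM in S and 4904 CPM in G2/M cells, and that of Krt5 was 852, 1099.7 and 929 CPM. The median low-cycle cell of MK was thus below the S cell for both genes and lowest of the 3 classes for Krt5. The mean of MK low-cycle cells rested on a wide spread, with quartiles of Krt14 at 1898 and 11051 CPM against 2765 and 7264 CPM in G2/M cells.

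Sorting cells by the level of the pair showed the same spread. In MK, low-cycle cells made up 24.7% of the lowest of 5 equal bins of cells by pair level, 7.46% of the middle bin and 25.2% of the highest. In Diff_MK they made up 19.7% of the lowest bin, 30.6% of the middle bin and 97.9% of the highest. The MK low-cycle cells thus sat at both ends of the keratin range, and the highest Diff_MK cells were nearly all low-cycle. Krt15 had 1692 CPM and Krt6a 8232 CPM in that highest Diff_MK bin, against 49.6 and 850.1 CPM in the lowest. In the bin just below the highest, Krt15 was already at 1696 CPM and Krt6a at 4179 CPM. The Krt5 share of the pair was 18.9, 18.2, 16.7, 15.4 and 13.9% from the lowest to the highest bin in MK, and 22.8, 21.2, 21.3, 21.3 and 17.2% in Diff_MK. The MK share was lower in each higher bin, while the Diff_MK share was nearly level over the middle 3. Krt14 is most of the sum that ordered the bins, so the order is not independent of the share.

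The difference between the libraries was larger among cells with few cell cycle transcripts than among the others. Within low-cycle cells the Diff_MK over MK ratio was 2.52 for Krt14 and 3.73 for Krt5, where 2.34% of genes reached 2. Within S cells it was 1.29 and 1.67, and within G2/M cells 1.24 and 1.71, where 0.852% and 0.886% of genes reached 2. Over 5 equal bins of all cells ordered by both cycle lists together, the Krt14 ratio was 2.44 and 1.79 in the lower 2 bins and 1.16 to 1.249 in the upper 3. The Krt5 ratio was 3.55 and 2.48, and 1.54 to 1.66. The Krt5 ratio exceeded the Krt14 ratio in each class and each bin. The Krt5 share of the pair was 14.1, 15.9 and 15.8% in low-cycle, S and G2/M cells of MK and 19.5, 19.6 and 20.5% in those of Diff_MK.

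**Figure D3:**
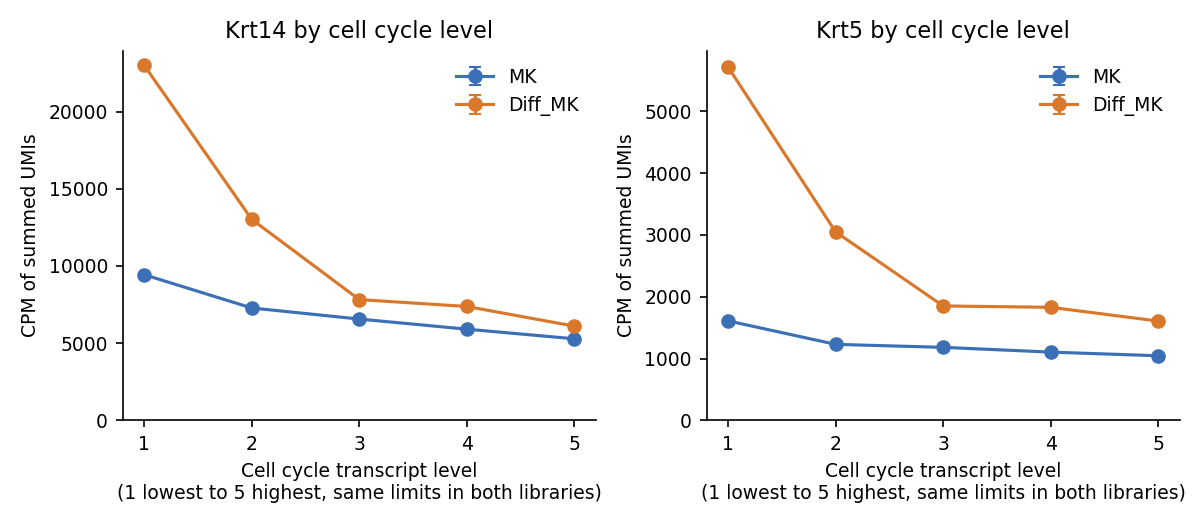
Krt14 (left) and Krt5 (right) in CPM of summed UMIs, in 5 equal bins of all kept cells ordered by cell cycle transcript level from 1 (lowest) to 5 (highest), with the same limits for both libraries; bars are 95% counting intervals and lie within the points. Diff_MK lies above MK in every bin, by 2.44 times for Krt14 and 3.55 times for Krt5 in the lowest and by 1.16 and 1.54 times in the highest.

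Krt15 and depth moved with these classes. Krt15 had 1920 CPM in the lowest cycle bin of Diff_MK and 86.4 CPM in the highest, and median UMIs were 11114 and 19475. Among Diff_MK cells without a Krt15 UMI, low-cycle cells still had 2.82 times the Krt14 level and 2.19 times the Krt5 level of G2/M cells. With cells thinned to 7500 UMIs, Diff_MK G2/M cells had 0.308 times the Krt14 level and 0.332 times the Krt5 level of low-cycle cells. Without thinning these values were 0.326 and 0.347. The part of depth in the result was not tested further. Among MK cells with a Lor UMI (338 low-cycle, 335 S and 514 G2/M cells), the low-cycle level was 1.29 times the G2/M level for Krt14 and 0.879 times for Krt5. Against the S cells it was 0.886 and 0.623 times, so there the direction turned for both genes.

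Other genes marked cells in which the pair was high, low or out of balance. Cells were called high for a marker at 3 or more thinned UMIs and at or above the 90th percentile of their library. Lor encodes loricrin, the main protein of the cornified envelope. The 393 Lor-high MK cells had 0.310 times the Krt14 level and 0.186 times the Krt5 level of the other MK cells. The 105 Lor-high Diff_MK cells had 0.322 and 0.132 times those of the other Diff_MK cells. Krt5 was the lower of the pair there, and its share was 9.88% in MK and 9.27% in Diff_MK.

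Several stress keratins and other markers of differentiating cells went with more of both messages. The 730 Krt6a-high MK cells had 2.70 times the Krt14 and 2.02 times the Krt5 level of other cells, and the 630 Krt6a-high Diff_MK cells 2.98 and 2.01 times. The 146 Diff_MK cells high for Krt78, a type II keratin of differentiating epithelium, had 2.97 times the Krt14 but 1.39 times the Krt5 level, a Krt5 share of 10.8% against 20.5% in other cells. Krt6b-high Diff_MK cells (116) had 2.82 and 1.42 times, with a share of 11.4%. Cells high for Ly6d, a surface antigen of stratified epithelia, had 2.01 and 1.40 times in MK and 2.92 and 2.001 times in Diff_MK. In these 4 states Krt14 exceeded its level in other cells by more than Krt5 did. Lgals7-high cells did not share this, at 1.70 times for Krt14 and 1.72 times for Krt5 in MK and 2.29 and 2.48 times in Diff_MK, where their Krt5 share was 20.9% against 19.6%. Ivl-high cells had 1.33 times the Krt14 and 1.11 times the Krt5 level in MK, and 1.20 and 1.12 times in Diff_MK. For Sprr1b-high cells these values were 1.93 and 1.57 in MK and 2.28 and 1.73 in Diff_MK.

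The reverse balance was found with Krt15. The 630 Krt15-high Diff_MK cells had 1.63 times the Krt14 level and 2.35 times the Krt5 level of the others, and a Krt5 share of 25.2% against 18.9%. In MK only 4 cells were Krt15-high, too few for a value. Krt19-high cells had 1.94 times the Krt14 and 2.16 times the Krt5 level in Diff_MK, and 1.26 and 1.13 times in MK. Cells high for Mki67, a proliferation marker, had 0.455 times the Krt14 and 0.501 times the Krt5 level in Diff_MK, and 0.857 and 0.916 times in MK.

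**Figure D4:**
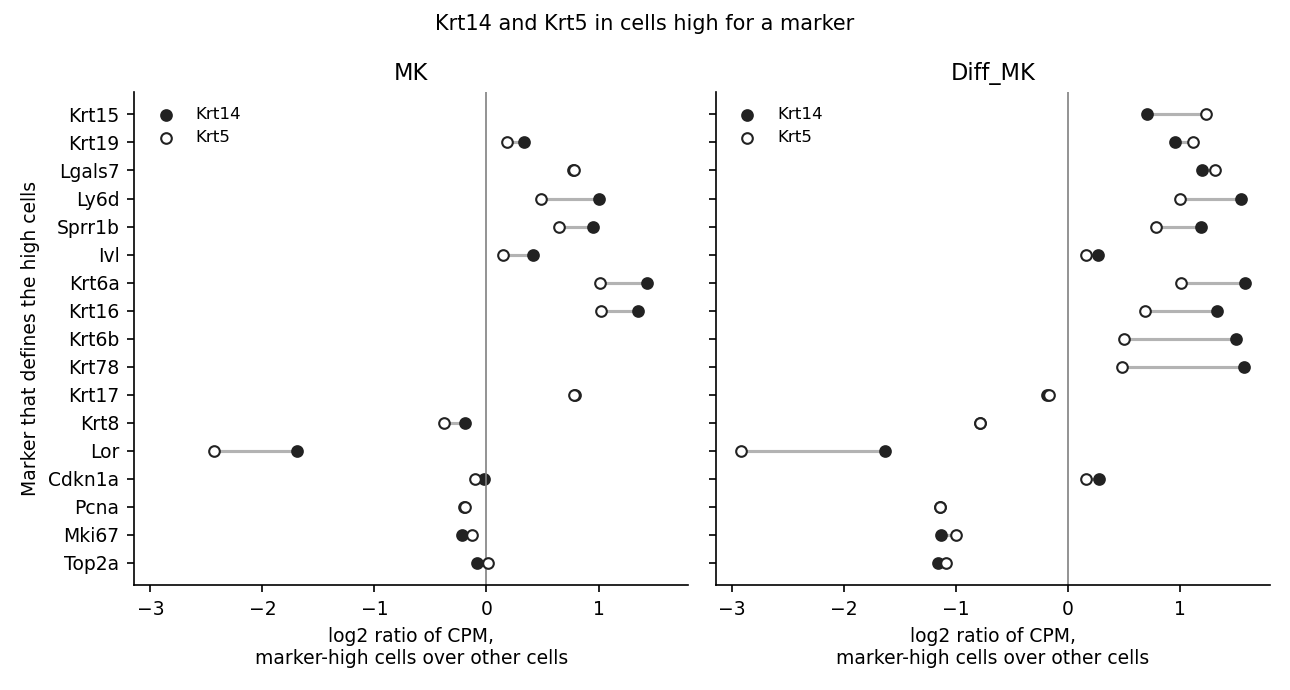
Log2 ratio of the CPM of Krt14 (filled) and Krt5 (open) in cells high for each marker over the other cells of the same library, MK on the left and Diff_MK on the right; markers with fewer than 50 high cells have no point. Both genes lie far left in Lor-high cells, Krt14 lies right of Krt5 in Krt6a-, Krt6b-, Krt78- and Ly6d-high cells, and Krt5 lies right of Krt14 in Krt15-high Diff_MK cells.

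Among regulators of basal keratin genes at 5 CPM or more, the ratio ran from 0.525 (Fosl1) to 4.06 (Jun), above that of the pair. Of 30 regulators listed, 26 had 5 CPM or more in at least 1 library, 4 of these had a ratio of at least 2 and 0 a ratio of 0.5 or less, against 2.05% and 1.2% of 9282 genes at that level. Their median log2 ratio was 0.01, against -0.16 over those genes. Trp63, the p63 gene needed for the basal programme, had 88.9 CPM in MK and 86.4 CPM in Diff_MK, and the AP-2 gene Tfap2a 43.2 and 47.7 CPM. Klf4, a factor of differentiating cells, had 84.0 and 112 CPM, and Klf5, a factor of basal cells, 107 and 111 CPM. The 4 with a ratio of at least 2 were Jun (4.06), Fos (3.69), Notch1 (2.22), a receptor that drives exit from the basal layer, and the thyroid hormone receptor gene Thra (2.14). Of 8 regulators with enough counts in Diff_MK, 2 had rho of 0.1 or more with each gene (17.5% of all genes with Krt14 and 17.8% with Krt5). A rho of -0.1 or lower was found for 1 with Krt14 and 2 with Krt5 (50.9% and 53.9% of all genes). Over Diff_MK cells, Fos had rho of 0.41 with Krt14 and 0.42 with Krt5, and Jun 0.24 and 0.28. Klf5 had 0.03 and -0.01, and Cebpb -0.16 and -0.23. Jun and Fos are also known to respond to cell dissociation, whose part in these values was not tested.

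Genes of the filament's partners were more often tied to the pair. Of 12 partner genes with enough counts, 8 had rho of 0.1 or more with Krt14 and 10 with Krt5 in MK (12.2% and 14% of all genes), and 8 and 9 in Diff_MK (17.5% and 17.8%). Sfn had the highest rho in both libraries, at 0.47 with Krt14 and 0.30 with Krt5 in MK and 0.58 and 0.44 in Diff_MK. Dsp, the desmosomal protein that anchors keratin filaments, had 0.23 with both genes in MK, and 0.37 and 0.36 in Diff_MK. Its level was 330 CPM in MK and 627 CPM in Diff_MK, a ratio of 1.90. Plec, the plectin gene of hemidesmosomes, had 217 and 179 CPM, and rho of 0.08 and 0.15 in MK and 0.02 and 0.06 in Diff_MK. Only Eppk1, encoding epiplakin, a keratin-binding protein, reached a ratio of 2 (2.42, from 7.51 to 18.1 CPM) among the 19 partners at 5 CPM or more.

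Most other basal genes did not share the pair's ratio. Of 26 basal genes, 3 had a ratio of at least 2, namely Krt15 and the pair itself, and 1 had a ratio of 0.5 or less, the integrin gene Itga2 at 0.398. The shares over all genes at 5 CPM or more were 2.05% and 1.2%. Itgb1 had a ratio of 0.644 and Ccnd1, the cyclin D1 gene, 0.510. Col17a1, the hemidesmosomal collagen gene, had 1.27 and rho of 0.20 with Krt14 and 0.26 with Krt5 in MK, and 0.20 and 0.24 in Diff_MK. Ccnd1 had rho of -0.42 with Krt14 and -0.44 with Krt5 over Diff_MK cells, and -0.07 and -0.04 over MK cells.

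Lineage tags allowed the pair to be compared between and within clones. A clone is the set of kept cells with the same leading tag, and 46 MK and 50 Diff_MK clones had at least 20 cells. Over MK clones, Krt14 ran from 4216 to 8499 CPM (median 6418) and Krt5 from 798 to 1618 CPM (median 1175). Over Diff_MK clones, Krt14 ran from 4205 to 20092 CPM (median 11245) and Krt5 from 635 to 4464 CPM (median 2791). The coefficient of variation over clones was 17.5% for Krt14 and 16.6% for Krt5 in MK, and 32.4% and 35.3% in Diff_MK. With at least 50 cells per clone it was 10.03% (Krt14) and 10.9% (Krt5) over 16 MK clones and 22.0% and 20.6% over 25 Diff_MK clones. With low-cycle cells only, it was 24.1% for Krt14 and 18.0% for Krt5 over 26 Diff_MK clones.

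Most of the variation lay within clones. Clone membership held 2.46% of the variance of log2 Krt14 levels over MK cells and 14.7% over Diff_MK cells, and 2.35% and 16.7% for Krt5. Any grouping of cells, even a random one, holds some variance, and this part was not taken off. The small MK shares therefore do not show a difference between clones. The Krt14 and Krt5 levels of clones went together, with rho of 0.83 over 46 MK clones and 0.89 over 50 Diff_MK clones. The Krt5 share of the pair ran from 12.6 to 18.7% over MK clones and from 8.21 to 28.6% over Diff_MK clones. Over Diff_MK clones the rho of Krt5 with the Krt15 level was 0.65 and with the percent of low-cycle cells 0.47, and that of Krt14 was 0.53 and 0.39. Clones of 1 library share its preparation, and these are descriptions.

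Clones matched by their tags gave the comparison within clones. In the 21 clones with at least 20 cells in both, both genes were higher in Diff_MK in 21 of 21. The Krt14 ratio ran from 1.09 to 2.43 (median 1.92) and the Krt5 ratio from 1.24 to 3.95 (median 2.67), with 9 and 17 clones at 2 or more. These ratios were not matched for cell cycle class. Low-cycle cells were 2.90 to 20.7% of a clone in MK and 23.0 to 57.1% in Diff_MK. The tags of 5 of these clones were equal over the shorter of both lengths but not identical. In the 16 with identical tags the Krt14 ratio was above 1 in 16 (median 1.93) and the Krt5 ratio in 16 (median 2.71). The Krt5 share of the pair was also higher in Diff_MK in 21 of 21 clones. The smallest change was in 1 clone of 26 MK and 61 Diff_MK cells, where Krt14 went from 6228 to 6784 CPM and Krt5 from 1161 to 1441 CPM, and where 23.0% of Diff_MK cells were low-cycle. The clone with the largest Krt14 change, of 280 MK and 539 Diff_MK cells, went from 6416 to 15579 CPM. The levels of a clone in MK and in Diff_MK had rho of 0.39 for Krt14 and 0.08 for Krt5 over these 21 clones, which sit in the same 2 libraries and are not replicates of them.

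**Figure D5:**
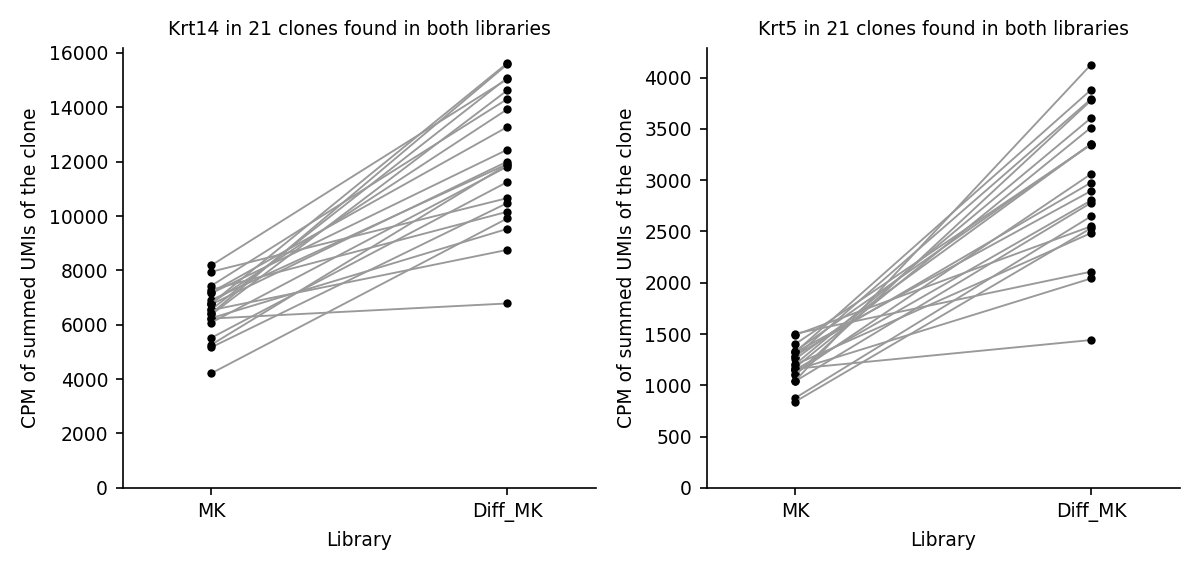
CPM of Krt14 (left) and Krt5 (right) in each of 21 clones with at least 20 cells in both libraries; each line joins the MK and Diff_MK values of 1 clone. All lines rise, the Krt14 lines by 1.09 to 2.43 times and the Krt5 lines by 1.24 to 3.95 times.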

How the data were processed

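The deposited RNA matrices hold raw UMI counts. The file headers name Cell Ranger 6.1.2, and the submitters' processing notes name mm10. Which gene annotation was used is not given in the sources used here. Deposited tag matrices hold raw counts per tag, and it is not given whether a count is a UMI or a read.

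Counts of kept cells were summed per library or class and scaled to CPM of the total, with exact conditional binomial (ratios) and Clopper-Pearson (shares) intervals. No p-value was computed. Correlations used cells thinned to 7500 UMIs, leaving out 337 MK and 635 Diff_MK cells. The S (43 genes) and G2/M (54 genes) sums per 10000 UMIs were log-transformed and standardised over both libraries together. A cell was S or G2/M by the larger value above 0. No doublet caller was run, and leaving out the 5% of cells with the most UMIs was an alternative. A clone shares a leading tag of 3 or more counts, at least 2 times those of the runner-up, and cells were joined by their 16-base barcode; 90 tags were matched between libraries, 82 of them identical.

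Named genes are the pair, keratins at 10 CPM or more, the 10 highest and 5 lowest rho per gene and library (no predicted, mitochondrial or ribosomal protein genes), extreme members of each list and the markers of cell states. Members and lists were chosen with earlier results of these data known. Totals of type I and II per cell, the cycle comparison without Krt15 or with Lor, the ribosomal protein genes and several regulators and partners named for their role were chosen after values were seen. Of the other lists, 3 of 9 spinous, 10 of 15 granular, 2 of 4 stress keratin, 2 of 4 simple keratin and 0 of 6 CDK inhibitor genes at 5 CPM or more had a ratio of at least 2, against 2.05% of all 9282 genes at that level. The ratio intervals, the correlations and the thinning were tested on simulated data, and the cycle classes, clones and marker-high states were not. Python 3.11.15, numpy 2.4.6, scipy 1.17.1, pandas 2.3.3 and matplotlib 3.10.9 were used.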

Additional observations from a re-analysis of the deposited data

Results flagged for a closer look

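Cells high for 2 markers went opposite ways in the libraries, and the difference was not tested. Cells high for Krt17, a type I keratin induced by stress, had 1.73 times the Krt14 level and 1.72 times the Krt5 level of other cells in MK, but 0.876 and 0.887 times in Diff_MK. Cells high for Cdkn1a, the gene of the CDK inhibitor p21, had 0.987 times the Krt14 and 0.934 times the Krt5 level of other cells in MK, and 1.21 and 1.12 times in Diff_MK.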

How the results depend on the processing

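Of 90 alternative values of 18 results, 28 stayed within counting error of the reported value (correlations and clone spreads: equal to 2 decimals), 62 moved beyond it and 0 reversed. The cause was not tested, except that thinning to fewer UMIs adds counting noise and the class settings change which cells enter. Medians per cell were not among these alternatives. By medians, MK S cells lay above low-cycle cells for Krt14 (5609 and 5155 CPM) and Krt5 (1099.7 and 852 CPM). MK G2/M cells then lay above low-cycle cells for Krt5 (929 CPM) but not for Krt14 (4904 CPM). The Krt14 ratio between libraries was 2.26 with median ratio scaling, 2.06 with keratins left out of the total, 2.28 with cells weighted equally, 1.75 with cycle classes weighted alike, 2.005 with at least 2000 genes and at most 10% mitochondrial UMIs, and 2.10 without the 5% of cells with the most UMIs. The Krt5 ratio was 3.03, 2.76, 3.18, 2.42, 2.68 and 2.84 in the same order. The mean of per-cell Krt5 shares was 16.5% in MK and 21.6% in Diff_MK, and the MK share without the cells with the most UMIs was 15.4%. With the upper against the lower of 5 bins of cells by the list, the Krt14 ratio of S to low-cycle cells was 0.808 in MK and 0.291 in Diff_MK, of G2/M cells 0.637 and 0.291, and the Krt5 ratios were 0.981 and 0.306 (S) and 0.739 and 0.288 (G2/M). Thinned to 7500 UMIs these were 0.812, 0.380, 0.687 and 0.308 for Krt14, and 0.932, 0.391, 0.791 and 0.332 for Krt5. With the stricter filter the Krt14 values were 0.758 and 0.399 (S) and 0.646 (G2/M, MK), and the Krt5 values 0.878 and 0.400 (S) and 0.739 (G2/M, MK). Without the cells with the most UMIs, Krt14 had 0.390 (S) and 0.318 (G2/M) in Diff_MK and 0.671 (G2/M) in MK, and Krt5 had 0.393 and 0.337 in Diff_MK. The correlation of the pair in MK was 0.75 as Pearson's r of log2 (CPM + 100), 0.61 thinned to 4000 UMIs, 0.76 in low-cycle cells, 0.68 with the stricter filter and 0.68 without cells under 0.5% mitochondrial UMIs, and in Diff_MK 0.77, 0.77 and 0.65 for the first 3. The spread over clones of at least 50 cells was 10.03% and 22.0% for Krt14 in MK and Diff_MK and 10.9% and 20.6% for Krt5. With the leading tag 5 times the runner-up or more it was 18.0%, 32.1%, 17.5% and 33.2%, and over low-cycle cells only 13.9%, 24.1%, 20.05% and 18.0%, where the MK values rest on 2 clones. No paired analysis was possible because each group is 1 library. With 1 library per group, differences between libraries of the same group are unknown, and counting intervals do not cover them.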

Other observations

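Ribosomal protein genes, a group chosen after values were seen, went with the pair over cells. Of 76 such genes with enough counts, 51 had rho of 0.1 or more with Krt14 and 59 with Krt5 in MK (medians 0.13 and 0.16), and 66 and 70 in Diff_MK (medians 0.34 and 0.44). Over all genes tested, such values were reached by 12.2% with Krt14 and 14% with Krt5 in MK, and by 17.5% and 17.8% in Diff_MK. The medians over all genes tested were -0.01 for both in MK and -0.10 and -0.11 in Diff_MK. Thinned counts share 1 total per cell, so a rise of abundant genes lowers the others; the part of this in the values was not tested.

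Barcodes removed by the filters had 3889 CPM of Krt14 and 686 CPM of Krt5 in MK and 8199 and 1675 CPM in Diff_MK, lower than the kept cells in both libraries. Kept cells under 7500 UMIs had 4886 and 902 CPM in MK, below the MK library's level, and 15483 and 4718 CPM in Diff_MK, above the Diff_MK library's level.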
